A study of Mus musculus with 2 samples.

Results

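The strong distal regions of the mouse thymus were 779 of the 38173 DNase I hypersensitive regions that both libraries of the study shared on the autosomes. In DNase-seq, nuclei are treated with the enzyme DNase I and the ends of the cut DNA are sequenced, and cuts are dense where chromatin is open. The tissue was thymus from female B6CASTF1/J mice aged 18 to 20 months, which are hybrids of the C57BL/6J and CAST/EiJ strains, and the 2 libraries, replicates 1 and 2, form 1 group with no other age, sex or tissue beside them. The labels give the libraries 1 donor record but different biosample records and do not say whether different animals were used, so differences between replicates may be technical. A region entered the set when overlapping peaks of the shorter deposited peak list had a signal of at least 5 in both libraries and both centres lay over 2.5 kb from every start site of a protein-coding gene. The members were thus chosen by their signal and their distance, and both are given below as a description, with no test. Of the 19694 shared distal regions, 779 (3.96%) met the signal minimum. The other 18915, with less than 5 in at least 1 library, are called weaker distal regions, and the 5702 regions within 2.5 kb of a start with at least 5 in both libraries are called strong promoter-proximal regions.

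Open chromatin far from gene starts includes enhancers, which raise transcription from a promoter at a distance, silencers, boundary elements bound by CTCF, and promoters of genes that make no protein. In the thymus, progenitors from the bone marrow become T cells: they rearrange the antigen receptor genes and settle on the CD4 or the CD8 lineage. Families of transcription factors known for this work include RUNX, ETS, TCF and LEF, GATA and the E proteins, and the enhancers of the receptor genes are among the best studied binding platforms for them. Where a factor covers DNA, DNase I cuts less, which leaves a short protected stretch called a footprint.

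The sequences of 7 members are printed first, since the footprints and words described further on can be read in them. They are the plus strand of the C57BL/6J reference (GRCm38, RefSeq), so the CAST allele of these hybrid mice may differ. Capitals mark bases inside footprints of both libraries. The first pair lies in or just beside the antigen receptor loci. The Tcra member, between the constant gene Trac and Dad1, is shown at chr14:54227430-54227729, and the Tcrb member, between Trbc2 and Trbv31, at chr6:41554401-41554640.
Tcra region: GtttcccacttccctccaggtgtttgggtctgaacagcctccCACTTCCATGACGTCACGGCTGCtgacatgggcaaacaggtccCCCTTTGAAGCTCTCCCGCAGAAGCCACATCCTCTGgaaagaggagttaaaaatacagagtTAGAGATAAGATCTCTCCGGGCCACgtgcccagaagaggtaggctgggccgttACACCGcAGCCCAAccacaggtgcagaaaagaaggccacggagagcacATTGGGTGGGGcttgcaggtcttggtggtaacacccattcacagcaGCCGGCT
Tcrb region: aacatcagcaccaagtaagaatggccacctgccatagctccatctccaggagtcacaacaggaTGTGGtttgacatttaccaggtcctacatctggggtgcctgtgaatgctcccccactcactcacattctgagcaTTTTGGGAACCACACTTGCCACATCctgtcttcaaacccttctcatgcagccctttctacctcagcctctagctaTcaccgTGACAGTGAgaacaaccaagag
In the Tcra region, counted from the first base shown, a cyclic AMP response element (TGACGTCA, bases 51 to 58), a TCF and LEF word (CTTTGAA, bases 88 to 94), the joined ETS and RUNX word read on the other strand (CCACATCC, bases 110 to 117) and a GATA word (AGATAA, bases 150 to 155) all stand wholly in capitals. Other words there do not: a RUNX word (AACCACA, bases 212 to 218) has 2 of 7 bases in capitals, and CAGGTG at bases 17 to 22 and 217 to 222, an Ikaros word and a MYB word have 0. As background, the enhancer known downstream of Trac binds CREB or ATF, TCF or LEF, RUNX and ETS factors side by side. In the Tcrb region, 1 of 2 RUNX words stands wholly in capitals (AACCACA, bases 145 to 151), as does an Ikaros word (TGGGAA, bases 141 to 146), while the joined ETS and RUNX word at bases 156 to 163 has 7 of its 8 bases in capitals.

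The next 3 sequences are the strongest members outside the exons of messenger RNAs, which are not printed. They rank 1, 4 and 5 by mean signal, and lie at chr17:39846781-39846900, at chr6:49236421-49236620 near Igf2bp3, and at chr10:80159830-80160129 near Cirbp.
Rank 1: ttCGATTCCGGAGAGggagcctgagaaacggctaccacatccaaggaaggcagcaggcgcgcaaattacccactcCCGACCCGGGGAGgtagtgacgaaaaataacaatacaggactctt
Rank 4: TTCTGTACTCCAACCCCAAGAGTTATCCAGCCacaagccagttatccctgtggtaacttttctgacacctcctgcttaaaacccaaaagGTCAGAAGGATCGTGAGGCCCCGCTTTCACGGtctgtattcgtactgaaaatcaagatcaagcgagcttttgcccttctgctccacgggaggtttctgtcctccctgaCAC
Rank 5: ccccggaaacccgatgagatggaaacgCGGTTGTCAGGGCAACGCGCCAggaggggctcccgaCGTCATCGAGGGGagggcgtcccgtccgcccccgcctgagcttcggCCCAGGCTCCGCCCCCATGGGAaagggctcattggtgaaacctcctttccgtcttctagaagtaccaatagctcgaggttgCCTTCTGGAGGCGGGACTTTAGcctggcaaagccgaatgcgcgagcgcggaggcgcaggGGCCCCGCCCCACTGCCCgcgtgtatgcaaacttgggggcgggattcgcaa
Ranks 1 and 4 held sequence found elsewhere in the reference: 68.8% and 78.2% of the 31-base words of their central 200 bp occurred at least once more, in up to 4 and 8 places. Rank 5 held no such word and carried 4 SP words (GGGGCGG or CCGCCCC), of which 2 stand wholly in capitals. The last pair are the strongest members outside those exons with a CTCF consensus in footprints, at chr8:20122141-20122300, and with an ETS and a RUNX word in footprints, at chr3:135402421-135402540 near Cisd2. The region near Cisd2 also holds the CTCF consensus with 1 mismatch, wholly in capitals within its longest capital stretch. Its label thus names only part of what its footprints cover.
CTCF region: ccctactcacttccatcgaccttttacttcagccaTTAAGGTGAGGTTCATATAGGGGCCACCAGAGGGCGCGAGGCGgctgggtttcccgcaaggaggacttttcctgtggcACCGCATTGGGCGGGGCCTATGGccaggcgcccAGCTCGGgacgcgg
ETS and RUNX region: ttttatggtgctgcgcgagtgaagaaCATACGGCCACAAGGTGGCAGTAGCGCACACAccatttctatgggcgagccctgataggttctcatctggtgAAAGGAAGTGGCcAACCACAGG
The CTCF consensus fills bases 59 to 72 of its region (CCACCAGAGGGCGC), which is also repeated in the reference: 74.7% of its 31-base words occurred in up to 5 places. In the other region the ETS word AGGAAGT (bases 101 to 107) and the RUNX word AACCACA (bases 112 to 118) are each wholly in capitals.

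Signal in the 779 members ran from 5.002 over a median of 7.26 to 60.5 in replicate 1, and from 5.003 over a median of 7.21 to 34.7 in replicate 2, in the deposited units, whose scale is not stated. The median of all peaks of the shorter list was 1.66 in replicate 1 and 1.43 in replicate 2, and sequencing depth is unknown. The libraries gave similar signals to most members, but the rule asks for at least 5 in both and so leaves out regions high in 1 library only. On 1 library alone, 1218 regions met it in replicate 1 and 1065 in replicate 2. In 721 of 779 (92.6%) the pair of signals lay within 1.5-fold of each other, and 370 members were higher in replicate 1 and 409 in replicate 2. The log2 ratio of replicate 1 to replicate 2 had an SD of 0.35 over members. All 6 members with at least 2 times the signal in replicate 1 were multi-copy, meaning that at least 10% of their 31-base words occur again in the reference, and 0 members had at least 2 times the signal in replicate 2. Just inside the minimum lay regions near Lrpprc (5.002 in replicate 1, 5.50 in replicate 2) and Prkd2 (5.002 and 5.09). Just outside it lay regions near Vps18 (5.91 and 4.997) and Bach2 (7.68 and 4.997).

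**Figure D1:**
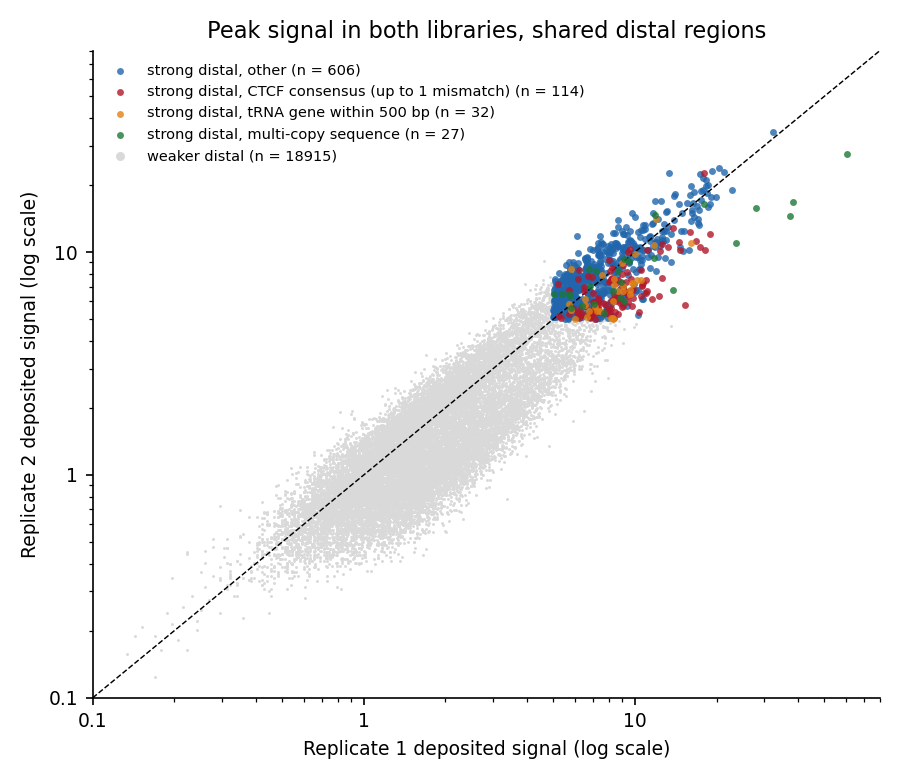
Deposited peak signal in replicate 1 (horizontal, log scale) and replicate 2 (vertical, log scale), 1 point per shared distal region. The 779 strong members are coloured by feature and the 18915 weaker regions are grey. A member takes the first colour that applies: CTCF consensus, then tRNA gene, then multi-copy, so some multi-copy members carry another colour. The dashed line marks equal signals. Most members lie along the line, the multi-copy ones reach the highest replicate 1 signals (60.5 at the top), and those with a CTCF consensus (here with up to 1 mismatch) or a tRNA gene lie mostly to its right.

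The strongest of all was the rank 1 region on chromosome 17, with 60.5 in replicate 1 and 27.6 in replicate 2. Its centre lies in a ribosomal RNA gene of GENCODE (CT010467.1), annotated in RefSeq as the pseudogene Rn18s-rs5, and 118 bp from the start of the noncoding gene Gm42418. Next came an exonic region in Cers5, a ceramide synthase gene (32.3 and 34.7), then an exonic region in Lars2, which encodes the mitochondrial leucyl-tRNA synthetase (38.2 and 16.8), and the region near Igf2bp3 (37.2 and 14.5). Of the 12 strongest members, 4 were multi-copy (rank 1, Lars2, Igf2bp3 and a region near Gm8797 with 28.1 and 15.7). These same 4 were the ones with at least 1.5 times the signal in replicate 1, while the other 8 were closer between libraries. No member shared a 31-base word with the mitochondrial genome.

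Of the remaining top members, those near Cirbp (20.4 and 23.8), which encodes a cold-inducible RNA-binding protein, and Morn3 (21.4 and 22.8) were followed by an intronic region of the chromatin remodeller gene Chd2 (19.3 and 23.2). Regions near Spen, a transcriptional corepressor gene (22.8 and 19.1), Tlcd2 (18.0 and 22.6), Trappc9 (17.4 and 22.5) and Cct8l1 (18.2 and 21.1) completed the 12. Of these 12 regions 8 were CpG-rich and 5 lay within 1 kb of the start of a gene of another type. The Tlcd2 region, for instance, lies 9 bp from the start of Mir22hg, the host gene of a microRNA.

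Position differed between the sets. Of the members, 470 (60.3%) lay between protein-coding genes, 272 (34.9%) in an intron and 37 (4.75%) in an exon, against 50.8% between genes, 43.8% in an intron and 5.41% in an exon for weaker distal regions. The share in introns ran from 33.7% to 37.2% when the rule was applied to 1 library alone. The nearest protein-coding start was closer: the median distance was 16954 bp in members and 25190 bp in weaker regions. A start lay within 10 kb of 34.3% of members and 23.2% of weaker regions, and 61 members (7.83%), against 13.1% of weaker regions, were at least 100 kb away. No test was made here or below between sets of regions, since the regions of a library are not replicates.

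The farthest member lay 1043552 bp from its nearest protein-coding start, Adam6a. It lies at chr12:114587381-114587540 inside the immunoglobulin heavy chain locus (7.15 in replicate 1 and 5.02 in replicate 2). The start of Ighv1-9, which GENCODE does not call protein-coding, lay 3458 bp from it. The next farthest member lay 464441 bp from Tox, which encodes a factor needed for CD4 T cell development (5.52 and 6.33). Another lay 402192 bp from 3110018I06Rik (8.47 and 7.46), inside the noncoding gene Gm16086. Of the members, 165 (21.2%) had another member within 10 kb, and 518 (66.5%) had a weaker distal region within 10 kb. Nearby peaks were not merged, and some neighbours lie close together, such as chr7:39552381-39552580 and chr7:39552641-39552880. No such share was computed for the other sets, so no clustering is read from these counts. Chromosome 11 held the most members, 88 or 5.32% of its shared distal regions. The highest share was on chromosome 7, at 71 members or 5.82%, and chromosome 18 had the lowest, 9 members or 1.59%.

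Many members lay at starts of other kinds of genes. Within 1 kb of the start of a gene that GENCODE does not call protein-coding lay 154 members (19.8%), against 7.33% of weaker distal and 15.6% of strong promoter-proximal regions. The gene types were lincRNA in 64 members, processed transcript in 27, antisense RNA in 22, unconfirmed transcripts in 16 and microRNA in 9, with the rest spread over 9 other types. By RefSeq, any transcript start lay within 1 kb of 209 members (26.8%) and 8.45% of weaker regions, and a messenger RNA start within 1 kb of 73 members (9.37%) and 3.21% of weaker regions. So "distal" here depended in part on the annotation: 258 members (33.1%), against 12.8% of weaker regions, had a start of some kind within 1 kb in one annotation or the other.

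The noncoding genes at members include several that blood cells are known to use, named here after their values were seen. At the host gene of miR-142, a microRNA of blood cells, 3 members within 1 kb of the starts of Mir142hg or Mir142 had 14.5, 9.48 and 5.24 in replicate 1 and 16.4, 9.80 and 5.34 in replicate 2. A member lay 207 bp from Mir150, a microRNA gene of mature lymphocytes (5.06 and 7.42). Others lay at Malat1, an abundant nuclear noncoding RNA (16.04 and 13.8 at 948 bp, and 9.15 and 6.29 at 18 bp), and at the small nucleolar RNA host genes Snhg8 (16.2 and 15.04), Snhg5 (12.3 and 10.7), Snhg15 (9.98 and 6.65), Snhg6 (5.82 and 5.93) and Snhg12 (5.23 and 5.14). A member 89 bp from Rn7s2, a gene for the RNA of the signal recognition particle, had 16.5 and 14.3, and a member within 500 bp of Rn7sk, whose RNA restrains transcript elongation, had 7.499 and 6.20.

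Transfer RNA genes, which RNA polymerase III transcribes, formed a further group. A RefSeq tRNA gene lay within 500 bp of 34 members (4.36%), against 142 weaker distal regions (0.75%) and 23 strong promoter-proximal regions (0.40%). The 34 spanned 13 chromosomes, with 10 on chromosome 11, and 26 of them were CpG-rich. Their signal ran from 5.71 over a median of 8.34 to 16.1 in replicate 1, and from 5.003 over a median of 6.67 to 14.04 in replicate 2. The strongest, near Tmpo, had 16.1 and 11.03, and 3 neighbouring ones near Zfp692 had 8.99, 6.47 and 7.26 in replicate 1 and 8.93, 6.94 and 5.42 in replicate 2. Replicate 1 was the higher library in 29 of 34. Of the 34 regions 13 were multi-copy, and the part of such copies in the signal was not tested.

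By base content the members stood between the other sets. Over the central 200 bp, the median share of G and C was 59.0% in members, 53% in weaker distal regions and 65.5% in strong promoter-proximal regions, with 47.5% in windows 2 kb to either side of the members. The ratio of observed to expected CpG, whose loss marks DNA that is methylated in the germ line, had a median of 0.48 in members, 0.27 in weaker regions and 0.86 at promoters. CpG-rich windows, with at least 50% G and C and a CpG ratio of at least 0.6, made up 294 members (37.7%), 8.23% of weaker regions and 89.7% of promoter-proximal ones. Under the rule on 1 library alone the share was 33.9% in replicate 1 and 29.7% in replicate 2. Repeat-masked bases averaged 6.85% in members, 11.2% in weaker regions and 28.2% and 26.6% in the flanking windows. Multi-copy sequence was found in 45 members (5.78%) and 6.63% of weaker regions.

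CpG-rich and CpG-poor members differed in place and strength. The 294 CpG-rich members had median signals of 8.76 in replicate 1 and 7.86 in replicate 2, and 18.4% lay in introns. The 485 CpG-poor members had median signals of 6.67 and 6.89, and 44.9% lay in introns, close to the 43.8% of the weaker regions. Of the CpG-rich members, 195 (25.03% of all 779) had no GENCODE start of any gene type within 1 kb.

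Every member held at least 1 footprint in each library. The median was 5 per member in both libraries, against 3 in weaker distal regions and 5 in strong promoter-proximal regions. The highest numbers were 14 in replicate 1 and 15 in replicate 2. Footprints come from the same cuts as the signal, so these counts are no independent support for the choice of members. Bases in footprints made up a median of 35.6% of the member's peak in replicate 1 and 36.4% in replicate 2, against 20.4% and 21.4% in weaker regions. The footprints were also longer: the median was 14 bp in replicate 1 and 15 bp in replicate 2, against 11 bp in weaker regions in both. Of the members' 3822 footprints in replicate 1, 82.0% touched a footprint of replicate 2, and of 3893 in replicate 2, 80.3% touched one of replicate 1. The same shares were 62.7% and 60.0% in weaker regions and 85.0% and 84.4% in strong promoter-proximal regions. Where footprints cover more bases, more of them touch by position alone.

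Averaged over members, footprint coverage had a maximum at the centre and another on each side. In the 10 bp just left of the centre, 49.9% of members had a footprint in replicate 1 and 51.2% in replicate 2, against 42.2% and 42.5% of weaker regions. Shoulders followed on both sides: between 70 and 79 bp to the right, footprints covered 38.6% and 35.4% of members, against 16.9% and 16.3% of weaker regions. Between 191 and 200 bp to the left the values were 6.47% and 8.90%, against 0.68% and 1.05%. The run of bases called at a low false discovery rate was also longer. That rate comes from the same cuts as the signal, so the length is no independent trait of the members. The unbroken run of bases at a deposited false discovery rate of 0.001 or lower about the centre had a median of 585 bp in replicate 1 and 656 bp in replicate 2, against 262 and 248 bp in weaker regions and 1038 and 1044 bp at strong promoters.

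**Figure D2:**
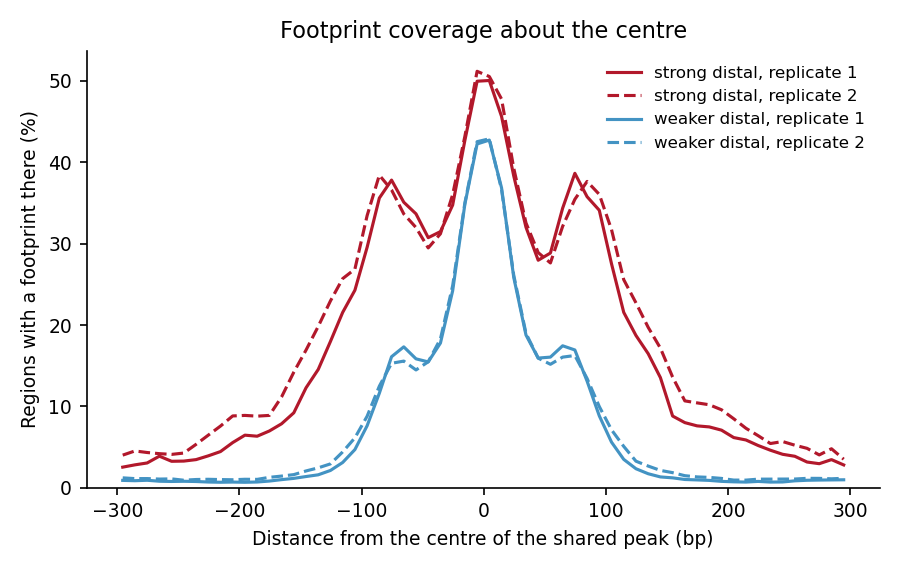
Share of regions (%) with a footprint at each distance (bp, in steps of 10) from the centre of the shared peak, for the strong distal members and the weaker distal regions in each library. The members show a central peak of about the weaker regions' height, 49.9% and 51.2% against 42.2% and 42.5%, and shoulders on both sides that reach over 2 times the weaker regions' share.

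The members with the most footprints were not among the strongest. A region near Pisd, which encodes a phospholipid synthesis enzyme, had 11 footprints in replicate 1 and 13 in replicate 2 at signals of 5.77 and 5.88. A region near the adaptor subunit gene Ap3m2 had 10 and 13 (signals 6.24 and 5.56), and an intronic region of the chromatin remodeller gene Arid1b had 8 and 15 (6.004 and 5.53). The rank 1 region, in contrast, had 3 and 2.

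The central 200 bp were searched on both strands for words of 31 factor families. A match is a description, not a site or a cause. The SP word was GGGGCGG, the NF-Y word CCAATNA, the cyclic AMP response element TGACGTCA and the NRF1 word GCATGCGC. A first form of the E-box was CAGCTG. A further form of it was CAGGTG. The ETS word was AGGAAGT, and the PU.1 word, which holds it, was GAGGAAGT. The RUNX word was TGTGGTT and the joined ETS and RUNX word GGATGTGG. The TCF and LEF word was CTTTGAA, and its variant that ends in another base was CTTTGAT. The GATA word was AGATAA and the word of AP-1 was TGANTCA. Also searched were EGR (GCGTGGGCG), RFX (GTTGCCAT), HNF4 (CAAAGTCCA) and Ikaros (TGGGAA). MYB words were AACTGNC and, as a variant with another base in the middle, AACGGNC. The others were NFAT (TGGAAAA), YY1 (AANATGGC), KLF (CCACACCC), STAT (TTCNNNGAA), IRF (GAAANNGAA), ROR (TAGGTCA), EBF (CCCNNGGGA), forkhead (GTAAACA), GFI1 (AATCACNGC), E2F (TTTCCCGC), and the longer consensus words of CTCF, NF-kB and the glucocorticoid receptor. Of the 31, 20 were present in a higher share of members than of weaker distal regions and 11 in a lower share.

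Several words known from promoters were more frequent in members than in weaker regions. SP words, which bind the SP and KLF zinc finger factors of CpG islands, were present in 22.1% of members, 6.41% of weaker regions and 46.2% of strong promoter-proximal regions, and in 2.57% and 2.05% of the flanking windows. With its letters in reverse order, a control for base content, the SP word was present in 25.3% of members, which is more than the word itself. NF-Y words, the CCAAT box, were present in 12.7%, 5.53% and 22.0% of the sets in the same order. In the flanking windows NF-Y words were present in 7.45% and 8.22%, which is above their share in weaker regions. The cyclic AMP response element, bound by CREB and ATF factors, was present in 4.11%, 0.58% and 4.44%, and NRF1 words, bound by a regulator of mitochondrial and housekeeping genes, in 3.72%, 0.98% and 8.05%. For all 4, the members' share exceeded that of the weaker regions in CpG-rich and in CpG-poor windows alike. The cyclic AMP response element, for example, was present in 6.12% of CpG-rich members and 1.93% of CpG-rich weaker regions, and in 2.89% of CpG-poor members and 0.46% of CpG-poor weaker regions. The reversed SP word was likewise more frequent in members, at 43.5% against 22.6% in CpG-rich and 14.2% against 5.22% in CpG-poor windows. YY1 words did not follow: they were present in 8.10% of promoter-proximal regions, 2.82% of members, 2.69% of weaker regions, and 3.85% and 5.39% of the flanks.

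Words of lymphoid factors went in different directions over all members. ETS words were present in 13.4% of members, 14.8% of weaker and 6.14% of promoter-proximal regions, and RUNX words in 9.24%, 9.47% and 1.96%. TCF and LEF words were present in 7.06%, 8.24% and 2.60%. In the flanking windows the shares were 5.01% and 6.03% for ETS, 5.26% and 5.13% for RUNX, and 5.65% and 7.32% for TCF and LEF. The members' share of TCF and LEF words thus lay within the range of the flanks. Ikaros words were present in 16.4% of members, 17.0% of weaker regions, and 19.5% and 18.4% of the flanks. Both forms of the E-box, which E proteins bind, were more frequent in members than in weaker and promoter-proximal regions: CAGCTG in 27.0%, 22.2% and 9.80%, and CAGGTG in 33.4%, 30.6% and 10.7%. In the flanks CAGCTG was present in 9.11% and 11.7%, and CAGGTG in 15.3% and 13.1%. The joined ETS and RUNX word, seen in both receptor regions printed above, was present in 4.49% of members, 3.08% of weaker and 1.18% of promoter-proximal regions.

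In CpG-poor windows, ETS words were present in 18.1% of members and 15.5% of weaker regions, and RUNX words in 13.4% and 10.01%. The joined word was present in 6.60% and 3.28%, CAGCTG in 34.8% and 22.8%, and CAGGTG in 45.2% and 31.6%. TCF and LEF words, at 8.45% and 8.65%, and GATA words, at 5.15% and 6.66%, were not more frequent in the members of this class. Over all regions, ETS and RUNX words were slightly less frequent in members than in weaker regions. In CpG-rich members the shares were low, with 5.44% for ETS and 2.38% for RUNX.

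Other words were less frequent in members. The CTCF consensus was present in 6.29% of members, 11.3% of weaker regions and 0.58% of promoter-proximal ones, and, with 1 mismatch allowed, in 14.6%, 29.8% and 3.89%. This share depended on the library: under the rule on replicate 1 alone it was 12.2%, and on replicate 2 alone 4.601%. GATA words were present in 3.98% of members and 6.46% of weaker regions, and AP-1 words in 3.72% and 6.40%. In the flanking windows the shares were 9.37% and 9.24% for GATA and 6.55% and 5.52% for AP-1. The HNF4 word, a liver factor's, was present in 0 members and in 0.19% of weaker regions.

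**Figure D3:**
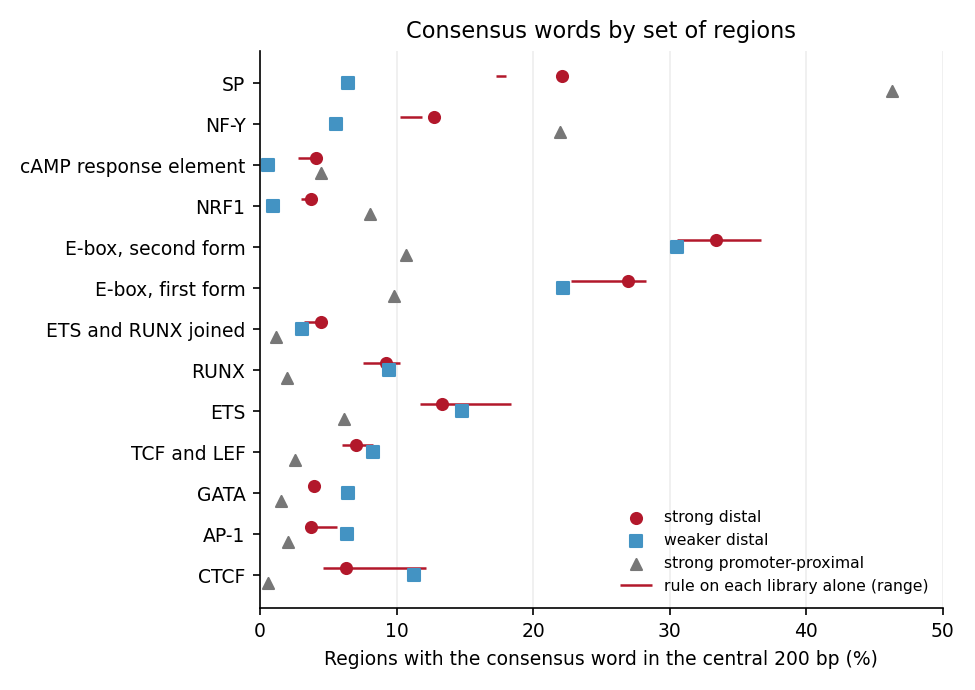
Share of regions (%) with each consensus word in the central 200 bp for strong distal, weaker distal and strong promoter-proximal regions; the red line spans the values under the rule on each library alone, and the first and second E-box forms are CAGCTG and CAGGTG. SP words run from 6.41% in weaker distal through 22.1% in strong distal to 46.2% in promoter-proximal regions, while CTCF is lower in strong (6.29%) than in weaker distal regions (11.3%).

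The shares moved with signal across all distal regions, binned by the lower of their signals. CpG-rich windows made up 6.30% of the 6774 regions under 1, 22.8% of the 553 regions from 4 to 5, 28.6% of the 569 from 5 to 8, and 62.4% of the 210 at 8 or more. SP words followed with 4.81%, 11.6%, 18.1% and 32.9% in the same bins. ETS words did not follow this order: they went up to 20.8% between 4 and 5, and were present in 14.8% from 5 to 8 and 9.52% at 8 or more. RUNX words had their highest share, 11.9%, in the same bin just under the minimum. CTCF was most frequent in the weakest bin, at 13.2%, and was present in 5.24% from 4 to 5, 7.38% from 5 to 8 and 3.33% at 8 or more. For CpG-rich windows the minimum of 5 thus cuts through a rise that goes on at both sides of it, and the members at 8 or more are mostly CpG-rich.

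**Figure D4:**
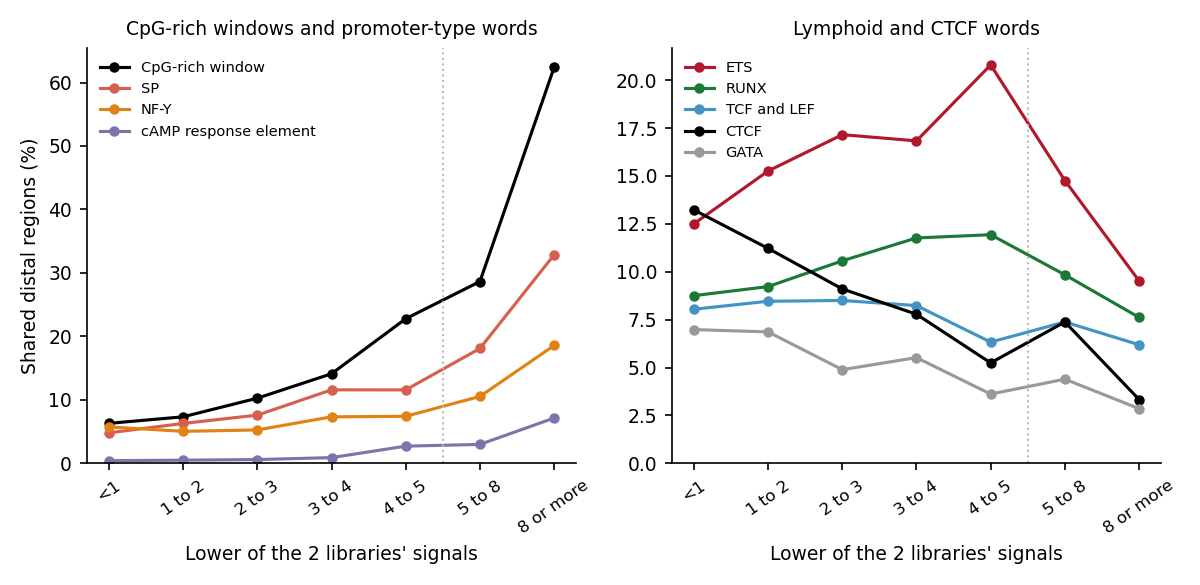
Share of shared distal regions (%) with a CpG-rich window or a consensus word, by the lower of the signals of both libraries; the dotted line marks the minimum of 5 that chose the members. CpG-rich windows reach 62.4% at a signal of 8 or more, whereas ETS words are most frequent (20.8%) between 4 and 5.

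Words differed in how often footprints of both libraries covered them. Each footprint was extended by 5 bp on both sides for this count. Among members, 51 of 52 CTCF matches (98.1%) lay wholly in footprints of both libraries, against 27.0% of all positions of that length. All 32 cyclic AMP response elements and all 8 EGR words were covered, 36 of 40 NRF1 words (90%), 186 of 221 SP words (84.2%) and 9 of 11 RFX words (81.8%). Among all positions of 7 and 8 bases, 36.7% and 35.3% were covered. NF-Y words, in contrast, were covered in 35 of 125 cases (28%). Among words of the T cell factors, the covered ones were 32 of 57 TCF and LEF words (56.1%), 16 of 38 joined ETS and RUNX words (42.1%), 27 of 78 RUNX words (34.6%), 30 of 116 ETS words (25.9%) and 6 of 34 GATA words (17.6%). ETS and GATA words were thus covered less often than the average position, as they were in weaker regions (11.4% and 7.70%, against 17.3% and 18.1% of positions). In members the E-box words were covered in 77 of 259 cases for CAGCTG (29.7%) and 87 of 307 for CAGGTG (28.3%). Ikaros words were covered in 50 of 141 cases (35.5%), against 38.1% of positions of 6 bases, and MYB words in 37 of 122 (30.3%). In weaker regions CAGGTG was covered in 24.2% of cases, above the 18.1% of positions. RUNX words there were covered in 23.5% of cases and TCF and LEF words in 20.9%, against 17.3% of positions. Joined ETS and RUNX words in weaker regions were covered in 28.6% of cases, against 16.6% of positions.

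The libraries differed from each other by kind of region. With the CTCF consensus, 48 of 49 members were higher in replicate 1, with a median log2 ratio of replicate 1 to replicate 2 of 0.38, and 2106 of 2131 weaker regions were too, with 0.80. At tRNA genes the median was 0.37 in members and 0.48 in weaker regions, and in multi-copy sequence 0.42 and 0.21. Members with an ETS word had -0.12 and weaker regions -0.05, and members with a RUNX word -0.19 and weaker regions -0.02. The 606 members with no CTCF consensus (with up to 1 mismatch), tRNA gene or multi-copy sequence had -0.10, and such weaker regions 0.01. Members without multi-copy sequence had -0.04 and such weaker regions 0.22, so multi-copy regions stood apart among members and not among weaker regions. Without a tRNA gene the medians were -0.03 and 0.22. Most members with an ETS or RUNX word were higher in replicate 2. Members are bounded by the minimum in both libraries, which limits how far their ratios can reach. The part of cell composition, digestion or depth in this difference was not tested.

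**Figure D5:**
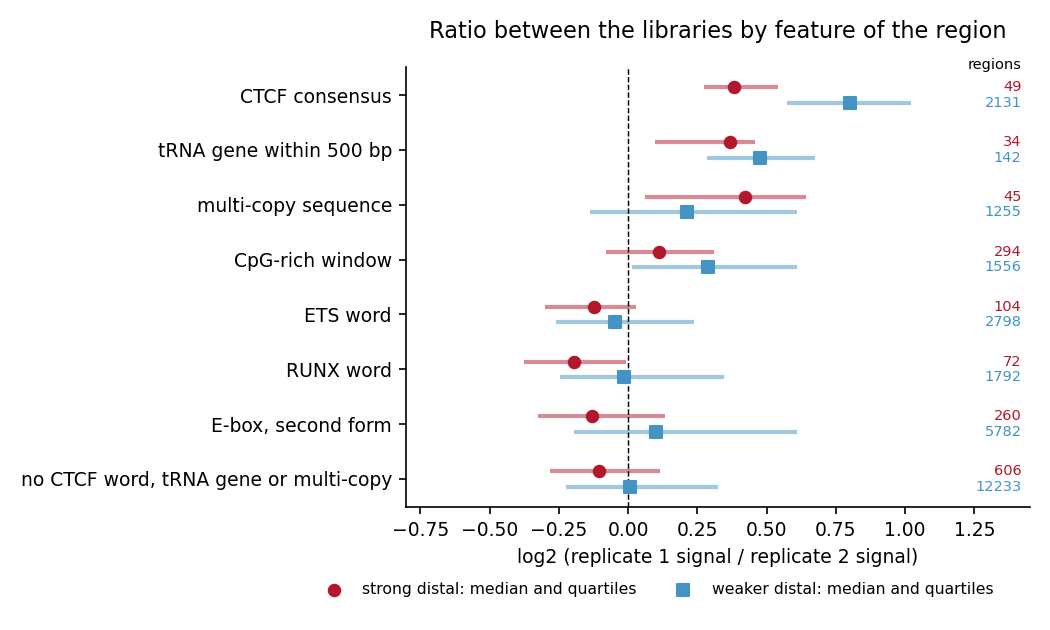
Log2 ratio of replicate 1 to replicate 2 signal, as median (symbol) and quartiles (line), by feature of the region for strong distal members and weaker distal regions, with the number of regions at the right. CTCF regions lie at 0.38 in members and 0.80 in weaker regions, while members with ETS or RUNX words lie below 0.

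The nearest protein-coding genes of the members numbered 643, which is 3.09% of the 20780 autosomal ones. Nearest is a matter of position only, and a nearest gene need not be the one a region acts on. Most, 538 genes, had a single member, 83 had 2 and 16 had 3, while 3 genes had 4 and 3 had 5. Genes with 5 members were Chd2, Ccnd3 and Tspoap1. All 5 at Ccnd3, which encodes the cyclin D3 that thymocytes need to expand, lay in introns within 37041 bp of the start, with signals of 17.5, 14.5, 7.05, 6.09 and 7.85 in replicate 1 and 18.8, 11.1, 8.47, 8.19 and 10.3 in replicate 2. The 5 next to Tspoap1 lay within 7320 bp about the miR-142 host gene described above. Of the 5 near Chd2, 1 overlaps the promoter of Chaserr, a noncoding gene beside Chd2 (16.1 and 19.8).

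Mef2d, Dad1 and Zfp36l2 had 4 members each. Dad1, an anti-apoptotic gene, is next to the T cell receptor alpha locus. Of its 4 members, 3 lie beyond the end of Trac but within 10 kb of it. Zfp36l2 encodes an RNA-binding protein that promotes decay of messenger RNAs and is active in thymocyte development. With 3 members each followed Ptma, Zfp958, Pde4d, Sox4, Chrna9 and Sept9 as the ones with the highest summed signals. Sox4, a factor of early lymphocytes, had its 3 members spread over 202040 bp, with 6.67 to 10.5 in replicate 1 and 6.39 to 11.7 in replicate 2. At Ptma, a prothymosin gene, they had 8.06 to 17.0 and 5.35 to 13.5.

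The thymocyte lists differed in how many of their genes were nearest to a member. Of T cell receptor and signalling genes 7 of 28 were, of T cell development factors 9 of 27, of survival and cytokine receptor genes 5 of 19, and of antigen receptor recombination genes 0 of 8, against 3.09% of all genes. In the same lists, 27 of 28, 26 of 27, 18 of 19 and 3 of 8 genes had a weaker distal region nearest to them, against 37.8% of all genes. The length and spacing of the genes were not taken into account, and the lists were chosen with results of these data known, so no more is read from the counts. In bulk tissue, fewer cells of a type and less open chromatin per cell cannot be told apart.

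Among the receptor and signalling genes, Ptprc, which encodes the phosphatase CD45, had 3 members, the strongest at 8.21 in replicate 1 and 8.96 in replicate 2. Cd8a had 2 and Cd8b1 had 1, which are described below. Cd2, an adhesion receptor gene, had a member with 10.6 and 6.18, and Cd3d, a subunit of the T cell receptor complex, one in an exon with 5.81 and 7.85. The others of the 7 were Cd6 and Cd247. Of those with values given here, Cd2 was the one higher in replicate 1.

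Among the development factors, Tcf7, which starts the T cell programme, had 2 members, the stronger with 10.9 and 13.2. Ets1 also had 2, the stronger 232526 bp from the start (6.21 and 8.34). Gfi1, a repressor gene, had a member with 5.91 and 9.03, Runx3, the factor of CD8 T cells, one with 7.62 and 7.64, and Id3, an inhibitor of E proteins, one with 7.60 and 6.74. The remaining 4 were Bcl11b, Runx1, Tox and Dtx1. In the survival list, Socs3, a brake on cytokine signalling, had 2 members, the stronger with 15.8 and 10.2, and Ccr9, the chemokine receptor of thymocytes, had 2, the stronger with 7.36 and 9.92. Ccr7 (7.14 and 8.59), Bcl2l1 (5.75 and 8.47) and Il4ra (5.88 and 7.59) had 1 each.

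Genes of the lists for other cell types are read against the same 3.09% of all genes; at lists this short, a count of 0 does not set them apart. No gene of thymic epithelium (0 of 18), myeloid and dendritic cells (0 of 18), erythroid cells (0 of 10), adipocytes (0 of 14), endothelium (0 of 12) or neurons (0 of 10) was the nearest gene of a member. Weaker regions were nearest to 10 of 18 genes of thymic epithelium, 8 of 18 myeloid and dendritic genes, 6 of 14 adipocyte genes and 8 of 12 endothelial genes. In the B cell list Cr2 was nearest to 1 member (15.3 in replicate 1 and 5.81 in replicate 2), whose sequence is multi-copy, with 18.8% of its words found elsewhere. In the fibroblast list these were Dcn (2 members, the stronger with 8.11 and 6.43 at 166469 bp) and Thy1, which T cells also express (5.48 and 6.71). Apoa1 in the hepatocyte list had a member inside an intron of Sik3 (5.32 and 6.59).

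The antigen receptor loci, taken with 10 kb on each side, held strong and weaker regions in numbers to be read against the 3.96% of all shared distal regions that were strong. In the joint locus of the T cell receptor alpha and delta chains 3 members stood beside 59 weaker distal regions. The strongest of them, the Tcra region printed above, had 13.9 and 17.9, with 10 footprints in replicate 1 and 8 in replicate 2, and ranked 35 of 779. The Tcrb locus held 1 member (8.21 and 10.4, with 3 and 6 footprints) beside 12 weaker regions, and the Tcrg locus 0 beside 4. Among immunoglobulin loci, the heavy chain locus held 1 member beside 50 weaker regions, the kappa locus 0 beside 1 and the lambda locus 0 beside 2. The alpha and beta chain regions were both higher in replicate 2, while the heavy chain region was higher in replicate 1 (7.15 and 5.02).

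Elements that RefSeq lists as curated, from published experiments, overlapped 19 members (2.44%), against 130 weaker distal regions (0.69%) and 11 strong promoter-proximal regions (0.19%). The Cd8 genes, which mark the CD8 lineage, had 3. The member at chr6:71369461-71369760 lies inside a listed regulatory fragment upstream of Cd8a and overlaps in part a listed silencer within it (6.66 in replicate 1 and 9.42 in replicate 2). Another pair lies in listed enhancers between Cd8b1 and Cd8a, at chr6:71341301-71341520 (7.53 and 7.91) and at chr6:71353761-71354020 (5.22 and 6.54). All 3 were higher in replicate 2.

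Further listed elements at members were the intronic Runx1 enhancer at chr16:92801661-92801940 (6.004 and 6.95) and an intronic Gfi1 enhancer at chr5:107718061-107718320 (5.91 and 9.03). Elements tested in transgenic embryos and listed as VISTA enhancers lay at members near Btg2 (11.9 and 17.0), Fos (11.7 and 13.5), Mn1 (11.7 and 10.7), Irf2bp2 (8.45 and 8.71) and Ccnd3 (7.05 and 8.47). The listing gives position only, and says nothing on activity in this thymus tissue.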

How the data were processed

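DNase-seq was analysed in 2 libraries of 1 group. Per the file notes, the authors deposited 2 peak lists, footprints and base runs per library on mm10, without pooling. The peak lists hold 1 deposited signal value per peak, of unstated scale. The peak caller and aligner were not given in the sources used here. False discovery rates (q-values) per base run were deposited, listed up to 0.05, and the constant 0.01 for each footprint, so positions alone were used. Depth is unknown, so no counting interval is given.

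Peaks of the shorter lists were paired when each was the largest overlap of the other (at least 1 bp). Starts and genes came from the GENCODE M21 basic set and sequence from the GRCm38.p6 RefSeq assembly. Words were searched on both strands of the 200 bp about the centre, with windows 2 kb away as flanks. A footprint belonged to a region when it touched the peak; words counted as covered when wholly inside footprints of both libraries, each extended by 5 bp. Python 3.11.15, numpy 2.4.6 and pandas 2.3.3 were used, and the scripts were tested on simulated data.

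The members, words and 14 gene lists (227 genes) were chosen with earlier results of these data known. The text names the 12 strongest members, the 3 with the most footprints, the 3 farthest from a start, 2 on each side of the minimum, the strongest in each of the Tcra and Tcrb loci, the 12 genes nearest to the most members and up to 5 genes per list. Others, such as noncoding, tRNA and listed-element examples, were chosen after their values were seen. A few results under this rule are not reported here. Sequences that touch a UTR or a messenger RNA exon (122 members) were not printed. The alternatives in the closing section vary the signal and distance minimum, the annotation, the library, the scale, the word and its window.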

Additional observations from a re-analysis of the deposited data

How the results depend on the processing

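Of 146 values recomputed under 22 alternatives, 33 moved: the number of members when it changed by over 1.5 times, and any other value when it changed by at least the SD between the rules on each library alone (0 for the share of G and C). The other 113 did not. The number of members was 1332, 471 and 210 at a minimum of 4, 6 and 8, 512 over 10 kb from a start, and 1065 to 1218 on 1 library. The share in introns was 31.6% and 26.2% at a minimum of 6 and 8, 31.4% over 10 kb from a start, 41.1% with starts of all genes, 39.7% with introns of all genes, 29.4% with the comprehensive annotation (670 members; chosen after seeing the data), and 33.7% to 37.2% on 1 library. The median number of footprints was 4 with shared footprints only, 3.5 wholly inside the 200 bp, and 4 to 5 on 1 library. The CTCF share was 14.6% with 1 mismatch, 0% for the reversed word, and 4.601% to 12.2% on 1 library. At a minimum of 6 and 8 the CTCF share was 3.61% and 3.33%, against 6.29% as reported. Those values did not count as moved, because the SD for this share was as wide as 5.34 percentage points. Leaving out multi-copy members or those at tRNA genes was also added after seeing the data. With 2 libraries of unknown depth that share a donor record, the spread between animals is unknown. The words stand for families of factors, and the reference lacks the CAST allele.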
